A study of Mus musculus with 12 samples.

Results

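The insulin-like growth factor (IGF) axis of the mouse kidney was followed through 10 genes, chosen by name from the 23420 genes of the count table: the ligand Igf1, the growth hormone receptor Ghr, the IGF1 receptor Igf1r and the 7 binding proteins Igfbp1 to Igfbp7. RNA was sequenced from 12 kidneys of male C57BL/6J mice aged 8 to 15 weeks, as stranded mRNA libraries read as single reads. The 4 control kidneys were those removed at nephrectomy, and the 8 other kidneys were taken 24 h after an ischemia that the labels give as 20 min (the controls carry that line of protocol as well). The paper's methods place the clamp by surgery with buprenorphine at least 24 h before ischemia, with or without removal of the right kidney. Differences from the controls therefore cannot separate ischemia from this surgery. Whether the mice were awake during the ischemia is labelled in contradictory ways for these 8 kidneys. The 4 kidneys named ischemia set A here carry a title for anesthesia and a group field for the conscious state, the 4 of ischemia set B carry the reverse, and no direction is assigned to anesthesia below. Each library came from a piece of whole kidney, so every value is a sum over all its cell types, and fewer cells of a type and less RNA per cell cannot be told apart.

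Growth hormone acts on its receptor to switch on transcription of Igf1 through JAK2 and STAT5, mainly in the liver. The IGF1 peptide binds IGF1R, a receptor tyrosine kinase that feeds the PI3K, AKT and mTOR chain. The binding proteins are secreted, hold most of the peptide outside cells, and release it when they are cut by proteases such as PAPP-A. In the kidney this axis is known for its part in tubular growth and filtration, and IGFBP7 is known as a urinary marker of stressed tubules.

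Between 15367342 and 44793350 reads per kidney were counted in genes, and between 10116 and 11574 genes had a count. Levels are given as CPM, counts scaled to library size with factors from the trimmed mean of M values (TMM), and a floor of 3 counts corresponded to between 0.0661 and 0.190 CPM. Of the 10 genes, 9 had a count in some kidney and 8 passed the filter on low counts. Igfbp1 and Igfbp6 did not pass and were not tested. By the quasi-likelihood test of edgeR, with p-values adjusted by Benjamini-Hochberg over all 11664 genes tested, 6 genes were lower in set A than in the controls and 0 were higher. The same 6 genes, Ghr, Igf1r, Igfbp3, Igfbp4, Igfbp5 and Igfbp7, were lower in set B, and again 0 were higher. At an unadjusted p under 0.05, 0 of the 8 were higher in either set, against 15.4% and 16% of all genes in sets A and B, and DESeq2 called 0 higher. Over all genes tested, 22.3% were called in set A (11.7% lower and 10.5% higher) and 22.8% in set B (11.9% lower and 10.9% higher). The median log2 fold change of all genes was −0.02 in each set. Both comparisons use the same 4 control kidneys, so they are not separate evidence.

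**Figure D1:**
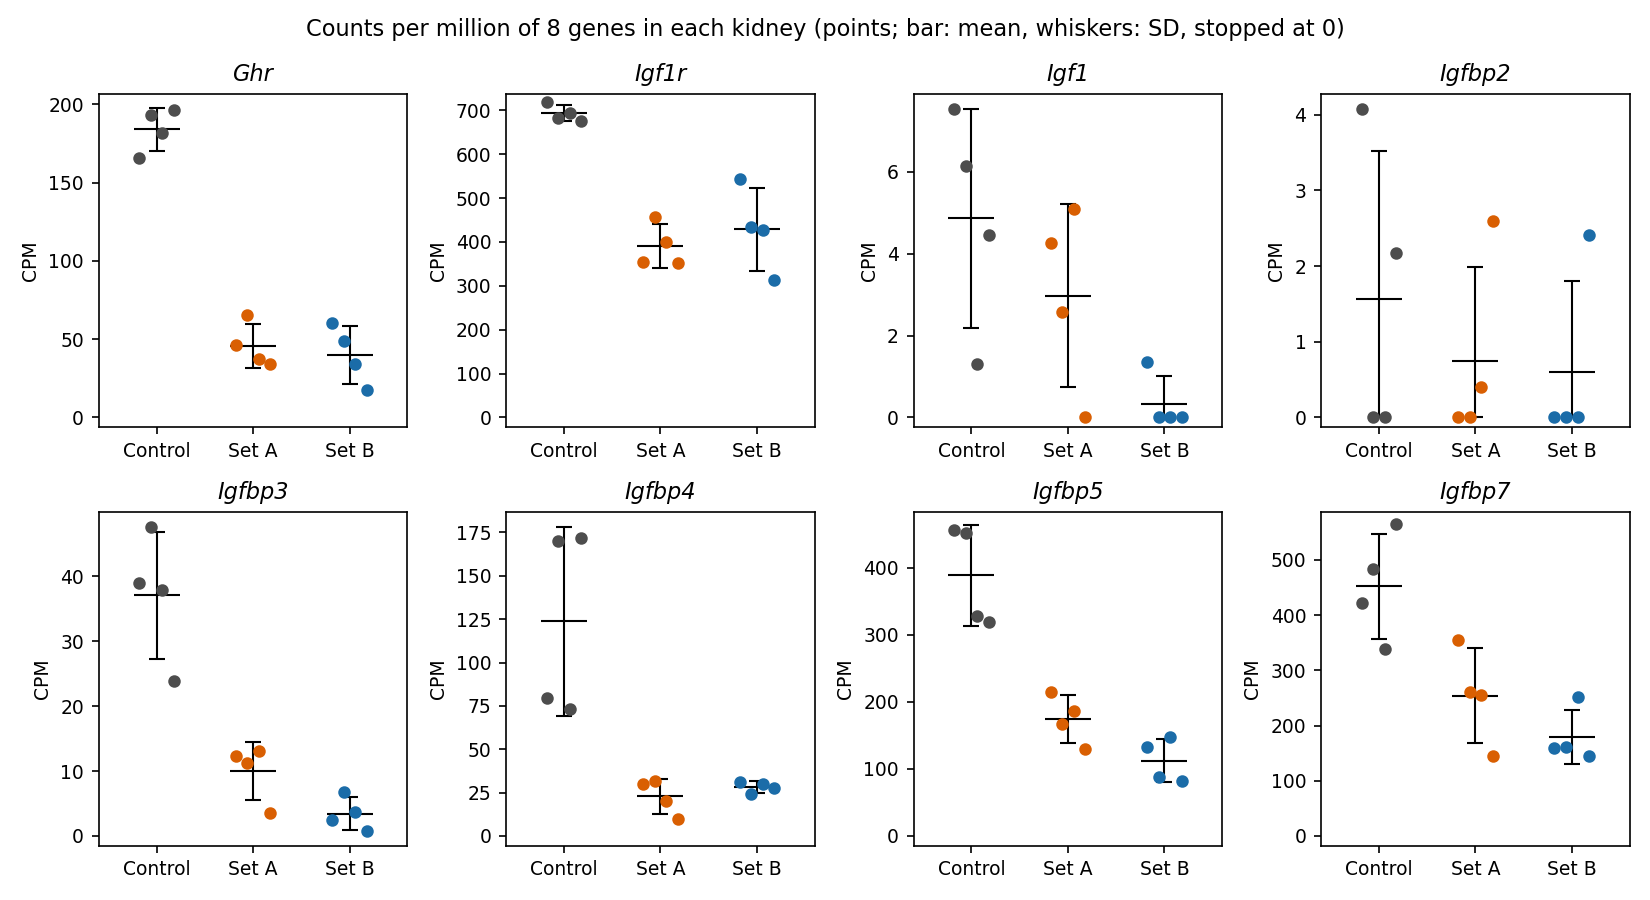
CPM (linear axis from 0) of the 8 tested genes in each of the 12 kidneys, one point per kidney, with the group mean as a bar and the SD as whiskers. All 4 kidneys of each ischemic set lie below all 4 controls for Ghr, Igf1r, Igfbp3, Igfbp4 and Igfbp5, and the set A kidney at 355 CPM of Igfbp7 lies above the lowest control at 339 CPM. The share of all tested genes separated in this way is not given here.

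To place the genes in the genome and show where their transcription starts, positions were read from GENCODE M21 (GRCm38, the mm10 build). Igfbp2 (chr1:72824503-72852474, plus strand) and Igfbp5 (chr1:72857932-72874884, minus strand) lay tail to tail, 5457 bases apart. Igfbp1 (chr11:7197782-7202546, plus strand) and Igfbp3 (chr11:7206086-7213923, minus strand) lay 3539 bases apart in the same arrangement. In each pair 0 protein-coding genes lay between the partners, and in each pair 1 partner was well expressed and fell after ischemia while the other was low or near the floor. Igfbp4 stood alone at chr11:99041244-99054392 (plus strand), Igfbp6 at chr15:102144362-102149511 (plus strand), Igfbp7 at chr5:77349240-77408041 (minus strand), Ghr at chr15:3317760-3583492 (minus strand), Igf1r at chr7:67952827-68233668 (plus strand) and Igf1 at chr10:87858265-87937042 (plus strand).

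Promoter windows from RefSeq (GRCm38.p6), 250 bases before to 50 bases after each start, matched 10 of 10 genes in 12 windows. They were searched on both strands for a STAT5 type motif (TTCNNNGAA), a forkhead type motif (GTAAACA), of the kind bound by the FOXO factors, which IGF1 signalling restrains, and the core of the hypoxia response element (ACGTG). The STAT5 type motif was in 0 of the 12 windows and in 8.30% of 32851 mouse windows of that length. The forkhead type motif was in 0 of the 12 and in 3.65% of all windows. The hypoxia core was in 2 of the 12, in Igfbp7 and in 1 of 2 windows of Igfbp2, and in 19.6% of all windows. In Igfbp2 the 2 matches overlapped, being the same CACGTG read on both strands. The letters describe these windows only. The 250 bases before the start are printed, 5′ to 3′ on the gene's strand, for the binding protein with the highest level (Igfbp7, chr5:77408046-77408295, minus strand), for the one with the largest change in set B (Igfbp3, chr11:7213924-7214173, minus strand) and for the one with the largest change in set A (Igfbp4, chr11:99040994-99041243, plus strand). Capitals mark the hypoxia core, which begins 175 bases before the start of Igfbp7.
Igfbp7: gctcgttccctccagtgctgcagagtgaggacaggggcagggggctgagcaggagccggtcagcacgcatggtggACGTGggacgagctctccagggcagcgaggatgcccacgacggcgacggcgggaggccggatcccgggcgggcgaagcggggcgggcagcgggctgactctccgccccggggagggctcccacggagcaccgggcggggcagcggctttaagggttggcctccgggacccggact
Igfbp3: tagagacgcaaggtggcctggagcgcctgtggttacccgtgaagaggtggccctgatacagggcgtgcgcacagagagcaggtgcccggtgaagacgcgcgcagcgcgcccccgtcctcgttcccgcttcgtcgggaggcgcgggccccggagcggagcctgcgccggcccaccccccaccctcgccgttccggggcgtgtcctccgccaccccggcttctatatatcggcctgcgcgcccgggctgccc
Igfbp4: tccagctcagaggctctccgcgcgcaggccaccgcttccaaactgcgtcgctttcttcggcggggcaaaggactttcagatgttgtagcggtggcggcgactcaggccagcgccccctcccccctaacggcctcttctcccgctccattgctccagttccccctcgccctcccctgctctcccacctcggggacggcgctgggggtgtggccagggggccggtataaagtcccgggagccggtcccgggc
The 300-base windows of these 3 genes were rich in G and C, at 73.3% for Igfbp7, 71.7% for Igfbp3 and 71.3% for Igfbp4, against a median of 52.7% over all mouse windows.

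Growth hormone receptor transcript fell in both sets. Ghr encodes the cytokine-type receptor through which growth hormone acts. It stood at 166, 193, 182 and 196 CPM in the 4 controls, at 46.0, 65.2, 37.3 and 34.0 CPM in set A, and at 60.0, 48.5, 34.2 and 17.5 CPM in set B. The highest ischemic kidney was thus far below the lowest control, and the sets overlapped each other. The mean was 184 ± 13.8 CPM (SD, n = 4) in the controls, against 45.6 ± 14.0 and 40.0 ± 18.4 in sets A and B (n = 4 each). The log2 fold change was −2.01 in set A (SE 0.27, adjusted p = 2.09e-05 in edgeR), which is 4.04-fold lower, and −2.20 in set B (SE 0.27, adjusted p = 8.44e-06), which is 4.59-fold lower. The exact permutation test gave p = 0.0286 for each set, the smallest value that 4 kidneys against 4 allow.

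The receptor for the ligand itself changed less. Igf1r read 718, 683, 695 and 676 CPM in the controls, 355, 458, 399 and 353 CPM in set A, and 543, 434, 426 and 313 CPM in set B. The controls lay close together, and neither set reached them. The control mean was 693 ± 18.4 CPM (SD, n = 4), and those of sets A and B were 391 ± 49.5 and 429 ± 94.1. In log2 units the fold change was −0.83 in set A (SE 0.14, adjusted p = 2.1e-04) and −0.69 in set B (SE 0.14, adjusted p = 0.00113).

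Igf1, the ligand, was scarce in the kidney, which takes most of its IGF1 from blood. The controls had 157, 236, 34 and 171 counts, set A had 134, 60, 231 and 0, and set B had 40, 0, 0 and 0. In CPM this was a mean of 4.86 ± 2.68 (SD, n = 4), 2.98 ± 2.24 and 0.337 ± 0.674. Set A and the controls overlapped, and the set B kidney with counts, at 1.35 CPM, overlapped the lowest control at 1.31 CPM. The log2 fold change was −0.70 in set A (SE 1.459, adjusted p = 0.839) and −3.78 in set B (SE 1.497, adjusted p = 0.111), and neither passed the threshold in edgeR. In set B the gene passed under DESeq2 (adjusted p = 0.0455), with the replicate number as a block (adjusted p = 0.0453) and without replicate 1 of set B (adjusted p = 0.00412), over a range of 0.00412 to 0.206 in all settings tried. Replicate 1 was the one set B kidney with counts, so without it the controls are compared with kidneys that are all at 0. The fitted log2 fold change then moved to −10.03, and to −6.13 with the block, so the size of the difference is not fixed by these counts. Counts of 0 beside clear counts were common in this table. Among 3618 genes with a mean count of 10 to 100 per kidney, 32.2% of values were 0 and 4.89% were between 1 and 9, so a 0 at this level says less than its counting limit alone would.

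Among the binding proteins, Igfbp3 showed the largest change in set B of the 6 called genes. It encodes the main carrier of IGF1 in blood, and stood at 39.0, 47.6, 37.9 and 23.9 CPM in the controls, at 12.3, 11.2, 13.1 and 3.49 CPM in set A, and at 2.39, 6.77, 3.72 and 0.825 CPM in set B. Every ischemic kidney was below every control, and 2 set B kidneys were below all of set A. The mean was 37.1 ± 9.79 CPM (SD, n = 4), 10.02 ± 4.42 and 3.43 ± 2.52. The log2 fold change was −1.88 in set A (SE 0.48, adjusted p = 0.00809, 3.69-fold lower) and −3.44 in set B (SE 0.49, adjusted p = 6.25e-05, 10.9-fold lower).

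Igfbp4 encodes an inhibitory binding protein that PAPP-A cleaves, and showed the largest change in set A of the 6 called genes. Its values were 79.5, 170.1, 73.3 and 172 CPM in the controls, 30.2, 31.4, 19.9 and 9.87 CPM in set A, and 31.3, 23.9, 29.9 and 27.9 CPM in set B. The controls fell into a lower and a higher pair, and the lower pair still lay above all 8 ischemic kidneys. The mean was 124 ± 54.7 CPM (SD, n = 4), 22.9 ± 10.1 and 28.2 ± 3.21. This gave a log2 fold change of −2.43 in set A (SE 0.32, adjusted p = 1.64e-05, 5.40-fold lower) and −2.13 in set B (SE 0.32, adjusted p = 6.84e-05, 4.38-fold lower).

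Igfbp5 encodes a binding protein that attaches to extracellular matrix. It read 456, 451, 328 and 319 CPM in the controls, 215, 166, 187 and 129 CPM in set A, and 133, 88.5, 147 and 81.3 CPM in set B. No ischemic kidney reached a control, and set B lay partly below set A. The mean was 389 ± 75.2 CPM (SD, n = 4), 174 ± 36.2 and 112 ± 32.5. This was a log2 fold change of −1.16 in set A (SE 0.20, adjusted p = 2.08e-04) and −1.79 in set B (SE 0.20, adjusted p = 1.75e-06).

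Igfbp7 encodes a secreted protein of low affinity for IGF1, and its transcript was lower after ischemia. It read 422, 483, 339 and 565 CPM in the controls, 355, 261, 255 and 146 CPM in set A, and 159, 162, 251 and 146 CPM in set B. Replicate 1 of set A lay above the lowest control. The mean was 452 ± 95.4 CPM (SD, n = 4), 254 ± 85.7 and 179 ± 48.3. The log2 fold change was −0.83 in set A (SE 0.22, adjusted p = 0.00988, exact permutation p = 0.0571) and −1.34 in set B (SE 0.22, adjusted p = 1.72e-04, exact permutation p = 0.0286). On the opposite strand Polr2b shares 85 of the 1209 exon bases of Igfbp7 (7.03%), and the strand setting of the counting is not given in the sources used here, so reads in this stretch cannot be assigned with certainty. Polr2b, a subunit of RNA polymerase II, stood at 36.9 CPM in the controls and at 32.9 and 25.5 in sets A and B, and did not pass the test in either set (adjusted p = 0.787 and 0.203).

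The other 3 binding proteins had 0 counts in most kidneys. For Igfbp2 the controls had 85, 0, 0 and 83 counts, set A had 0, 0, 18 and 43, and set B had 0, 0, 0 and 38. Kidneys with and without counts occurred in every group, and the log2 fold changes of −1.07 (SE 2.45, adjusted p = 0.858) and −1.37 (SE 2.46, adjusted p = 0.797) did not pass the test. On leaving out a kidney the set B value ran from −0.31, without control replicate 1, to −8.45, without replicate 4, the set B kidney that held counts. Igfbp1, which the liver secretes under the control of insulin, had 17 counts in control replicate 4 (0.444 CPM) and 0 in the other 11 kidneys. Igfbp6 was at 0 in all 12 kidneys, as were 9207 genes of the table, which at these depths allows up to 3 counts, or 0.190 CPM in the shallowest library, by counting error alone.

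**Figure D2:**
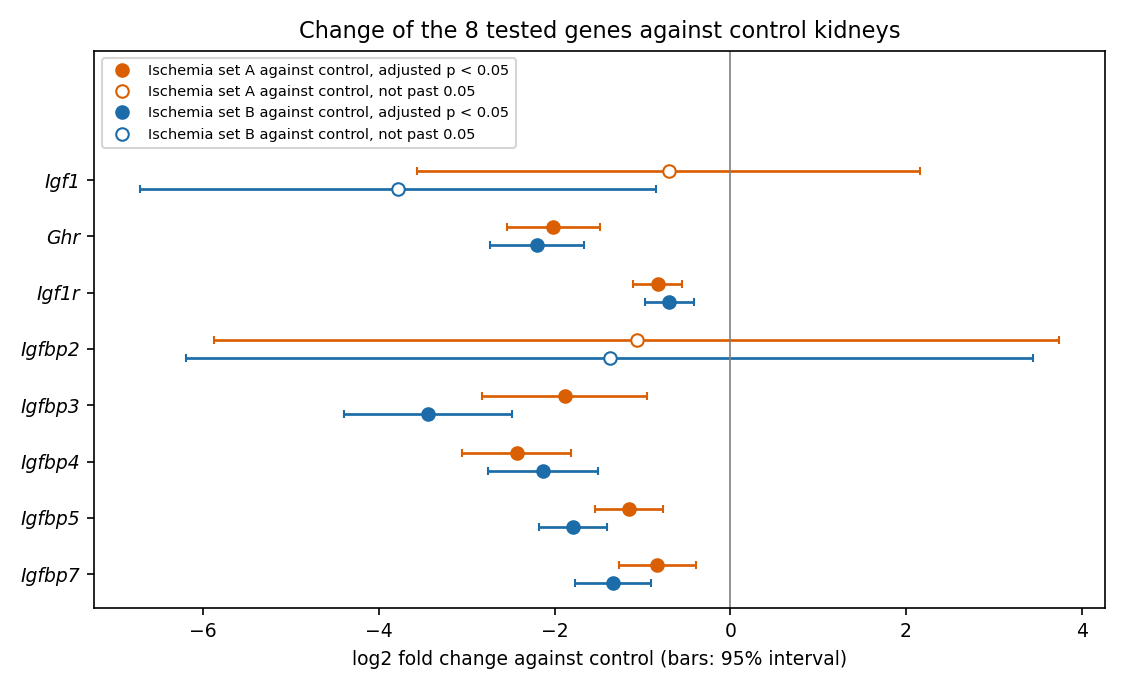
log2 fold change against the controls (horizontal axis) of the 8 tested genes in set A (orange) and set B (blue), with bars of the 95% interval and filled points where the adjusted p was below 0.05. The 6 called genes lie left of 0 in both sets, from −0.69 (Igf1r in set B) to −3.44 (Igfbp3 in set B), while the bars of Igfbp2 span 0 in both sets.

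Between genes, levels were compared as CPM per kilobase of exon. In the controls Igfbp7 stood highest at 374 ± 78.9 CPM per kb (SD, n = 4), followed by Igfbp5 at 64.7 ± 12.5, Igf1r at 41.3 ± 1.10, Igfbp4 at 28.0 ± 12.4, Ghr at 20.3 ± 1.52 and Igfbp3 at 11.9 ± 3.13. Igfbp2, Igf1 and Igfbp1 followed at 0.845, 0.491 and 0.0728 CPM per kb, and Igfbp6 was at 0. Of the neighbours among the top 6 in this order, Igfbp4 and Ghr had overlapping ranges in the controls and the others did not. In set A, Igfbp5 (29.0) and Igf1r (23.3) overlapped as well, and so did Igfbp4 (5.18), Ghr (5.04) and Igfbp3 (3.20). In set B the mean of Igf1r (25.5) stood above that of Igfbp5 (18.7), with overlapping ranges, and Igfbp4, Ghr and Igfbp3 again overlapped with their neighbours. On this scale the order of the other 4 of the top 6 was unchanged in both sets. The order rests on the union of exons, 9053 bases for Ghr, 4416 for Igfbp4 and 16791 for Igf1r. Their longest transcripts have 4175, 3831 and 11409 bases, so another length could change the order of close neighbours.

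The binding protein transcripts together came to 480 ± 89.7 CPM per kb in the controls and to 248 ± 79.3 and 175 ± 44.2 in sets A and B (SD, n = 4 each). The controls ranged from 364 to 568 and the ischemic kidneys from 142 to 340, so the groups did not overlap. Igfbp7 made up 77.8% ± 2.998 of the control sum, and 84.3% ± 1.76 and 84.6% ± 2.23 of that of sets A and B. Igfbp3 made up 2.57% ± 0.856, 1.25% ± 0.387 and 0.635% ± 0.520. The share of Igfbp4 was 5.66% ± 1.66, 2.03% ± 0.549 and 3.78% ± 0.783 in the same order, and that of Igfbp5 was 13.8% ± 3.12, 12.1% ± 1.88 and 10.7% ± 2.02. These shares rest on the annotated exon lengths and are given as a description. With no division by length, Igfbp7 made up 44.96%, 54.3% and 55.2% and Igfbp5 39.1%, 38.5% and 34.5% of the summed CPM in the controls, set A and set B, Igfbp4 12.002%, 4.81% and 8.96%, and Igfbp3 3.78%, 2.09% and 1.08%. Igfbp7 stayed the largest share of the mean in each group on both scales.

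**Figure D3:**
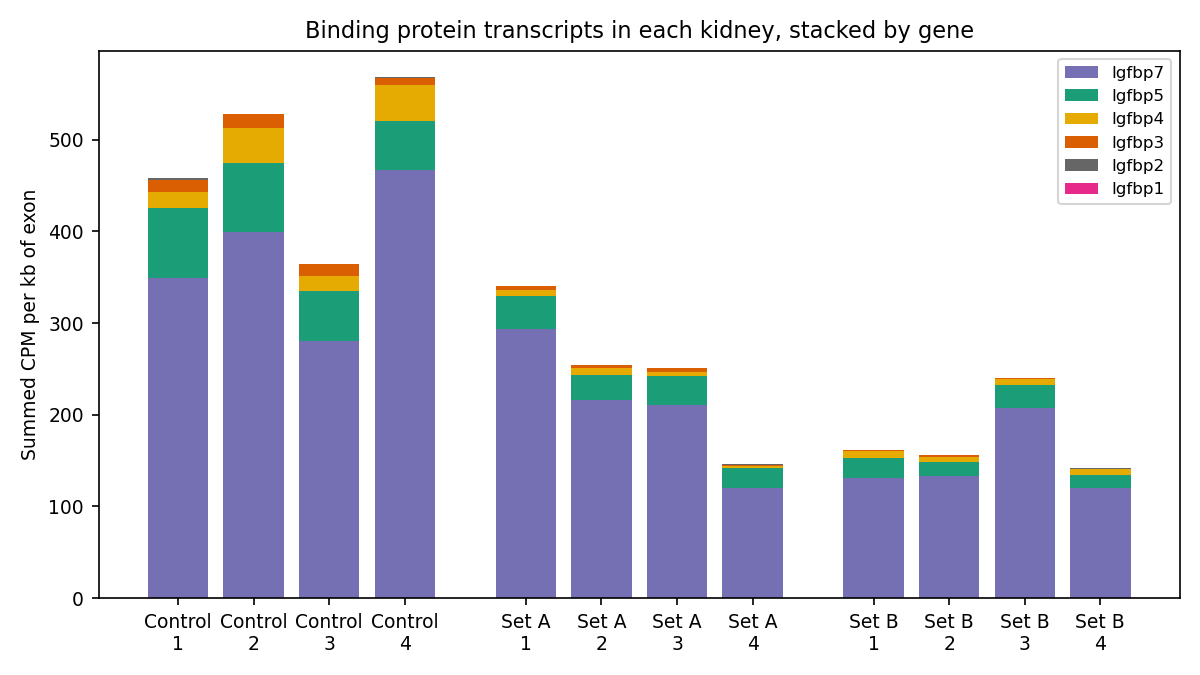
Summed CPM per kb of exon of the binding protein genes in each kidney (vertical axis from 0), stacked by gene, for 4 controls, 4 kidneys of set A and 4 of set B. The controls reach between 364 and 568 and the ischemic kidneys between 142 and 340, with Igfbp7 as the tallest block in every kidney.

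When set B was compared with set A, 0 of the 8 tested genes passed the threshold in edgeR, against 0.00857% of all genes tested. At an unadjusted p under 0.05, 3 of the 8 were lower and 0 higher in set B, against 2.62% and 2.41% of all genes tested, and DESeq2 called 0. Igfbp3 was lower in set B by a log2 fold change of −1.56 (SE 0.49, adjusted p = 0.930, exact permutation p = 0.0857), with 2 of 4 set B kidneys below all of set A. For Igfbp5 the difference was −0.63 (SE 0.20, adjusted p = 0.930, exact permutation p = 0.0857), and for Igfbp7 it was −0.50 (SE 0.22, adjusted p = 0.962, exact permutation p = 0.257). For Ghr the 95% interval of the log2 difference ran from −0.72 to 0.35, for Igf1r from −0.14 to 0.41 and for Igfbp4 from −0.33 to 0.93.

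Kidneys within a set also differed. Replicate 4 of set A was the lowest of its set for 6 of the 6 called genes, and replicate 4 of set B for 5 of 6, Igfbp4 being the exception. These were the shallowest libraries of their sets, with 16814285 and 15367342 counts. They also had the lowest summed proximal tubule markers of their sets (694 and 402 CPM). Their loop and distal tubule sums were the highest (1828 and 2146) and their fibroblast and pericyte sums the lowest (919 and 1125). The part of depth or cell make-up in their low values was not tested. With both kidneys left out, a choice made after the values were seen, the same test still called 6 genes lower in each set. Igfbp3 then changed by −1.60 in set A (adjusted p = 0.00257 in edgeR) and by −3.12 in set B (adjusted p = 7.08e-06).

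Markers of several cell types also differed from the controls, some lower and some higher. All 7 of 7 proximal tubule markers were lower in each set, against 11.7% and 11.9% of all genes, and their summed CPM was 6664 to 7402 for controls, 694 to 1284 for set A and 402 to 1319 for set B. Of 7 loop and distal tubule markers, 2 (Slc12a1 and Calb1) were lower in each set, and the sum was 3011 to 3611, 1189.7 to 1828 and 1075 to 2146 for the same groups. Of 5 markers of injured tubules, 4 were higher in each set, among them Havcr1 and Lcn2, and the sum was 3.74 to 9.95 for controls, 157 to 214 for set A and 145 to 171 for set B. Of 5 tested endothelial markers 0 were called in either set by edgeR or DESeq2, and 1 was lower at an unadjusted p under 0.05. The endothelial sum was 65.9 to 72.8 for controls, 50.5 to 75.6 for set A and 43.7 to 65.9 for set B.

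Of 5 tested fibroblast and pericyte markers, 2 (Col1a1 and Col3a1) were higher in each set, with the sum at 404 to 513 for controls, 919 to 2515 for set A and 1125 to 2353 for set B. Of 4 tested macrophage and leukocyte markers, 2 (Csf1r and Cd3e) were lower, the call of Cd3e being lost in 10 of 15 other settings in set A and 11 in set B, with the sum at 44.7 to 67.3, 9.41 to 26.0 and 12.2 to 33.3 for the same groups. Of 5 podocyte markers 3 were higher, with the sum at 161 to 195, 194 to 366 and 231 to 347. Of 5 liver markers, Apoa1 and Apoa2 were at or under the floor in every kidney, and the summed list was 15.9 to 23.6 CPM for controls, 2.47 to 7.79 for set A and 0 to 6.196 for set B. Most of the liver sum was Ttr (18.6 CPM in the controls), which was the 1 of 2 tested liver markers lower in set B (adjusted p = 0.0192 in edgeR, lost at 0.0530 without control replicate 4). DESeq2 called 0 liver markers in set B. Of 5 fat markers, Adipoq, Plin1, Cidec and Lep were at or under the floor in every kidney, with the sum at 0 to 3.77, 0 to 1.38 and 0 to 2.08 CPM in the same order and 0 of 1 tested marker called by edgeR or DESeq2, or at an unadjusted p under 0.05. Of 3 red blood cell markers in the table, Hba-a1 and Hba-a2 were at or under the floor in every kidney. The sum of red blood cell markers was 1.20 to 5.55 CPM for controls, 0 to 0.573 for set A and 0 for set B, and the 1 tested, Alas2, was lower in set B (adjusted p = 0.0266 in edgeR, lost in 5 of 15 other settings). The part of these shifts in the results for the IGF axis was not tested.

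**Figure D4:**
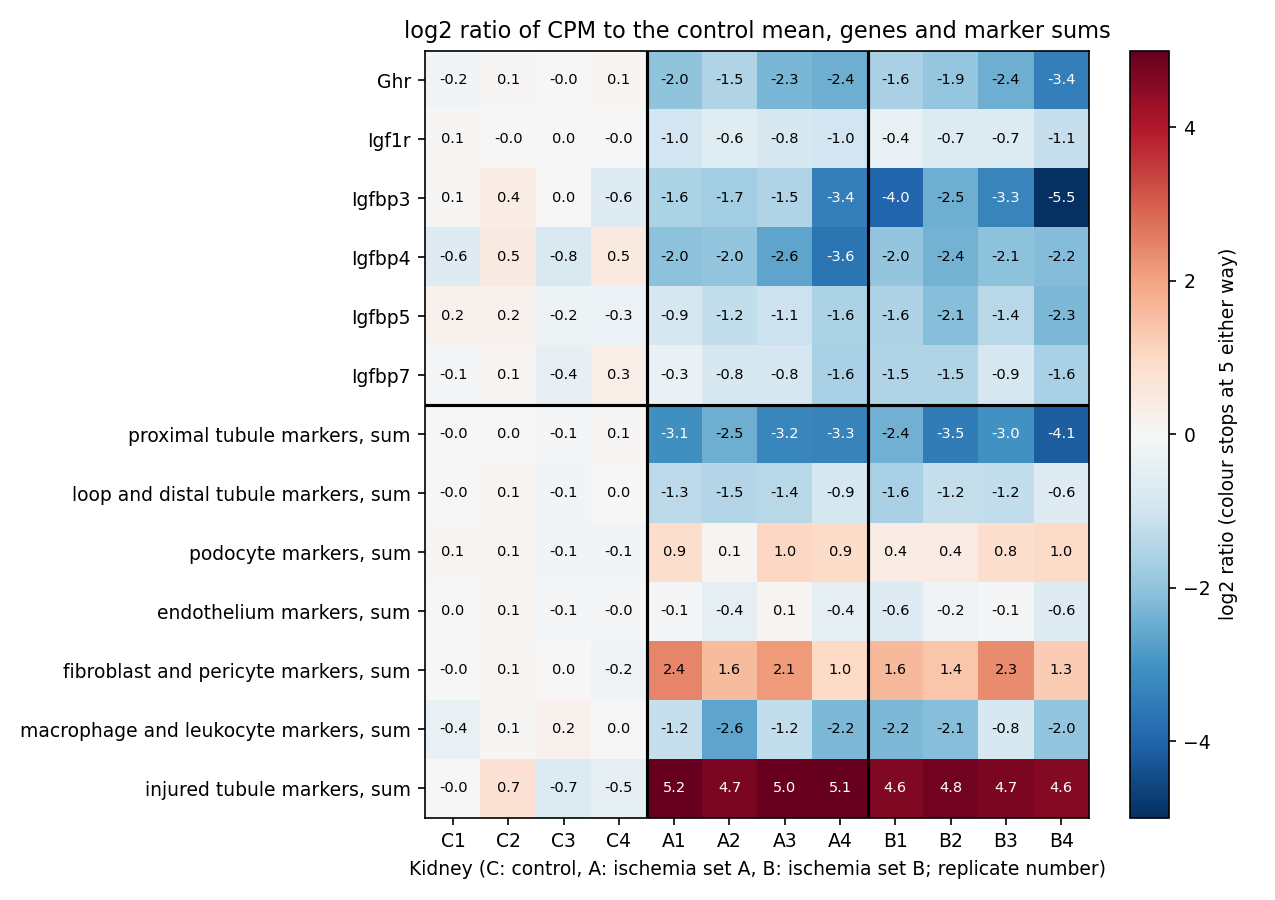
log2 ratio of CPM to the control mean in each kidney (columns) for the 6 called genes and for the summed markers of 7 cell types or states (rows), in colour with blue for lower and red for higher. The rows of the 6 genes and of the proximal tubule sum are blue in all 8 ischemic kidneys, deepest for Igfbp3 in replicate 4 of set B at −5.49, while the injured tubule sum is dark red.

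Other genes of the axis were read from 4 lists. Of 9 other IGF family genes, 6 were tested, and in each set 2 were lower and 2 higher, or 66.7% of them, against 22.3% and 22.8% of all genes. The median log2 fold change of the 6 was −0.51 for set A and −0.40 for set B. Insr, the insulin receptor, had a log2 fold change of −0.53 in set A (SE 0.13, adjusted p = 0.00395) and −0.50 in set B (SE 0.13, adjusted p = 0.00625). Insrr, its relative that responds to alkaline fluid, went from 71.0 ± 18.3 CPM in the controls to 32.9 ± 12.8 and 31.9 ± 11.4 in sets A and B (adjusted p = 0.00984 and 0.00758). The 2 genes that rose, Igf2bp2 and Igf2bp1, encode proteins that bind Igf2 mRNA and not the IGF peptide. Igf2bp2 went from 8.62 ± 2.42 CPM to 47.0 ± 8.44 in set A and 52.0 ± 26.4 in set B, log2 fold changes of 2.45 and 2.59. Igf2bp1 went from 1.58 ± 0.840 CPM to 6.07 ± 4.28 and 10.6 ± 2.08 (adjusted p = 0.0387 and 0.00500 in edgeR). The call of Igf2bp1 in set A, where its values overlapped the controls, was lost in 9 of 15 other settings, among them no filter on low counts (adjusted p = 0.0603), the replicate block (0.129), a fit of only the 2 groups (0.0899) and leaving out any one control or replicate 1 or 2 of set A (0.0526 to 0.162). In those settings 1 gene of the list and not 2 was higher in set A. Igf2r, the receptor that clears IGF2, did not pass the test (adjusted p = 0.147 and 0.432).

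Of 11 genes of growth hormone receptor signalling, 9 were tested, with 1 higher and 1 lower in each set, or 22.2% of them, a share near the 22.3% and 22.8% of all genes. The median log2 fold change of the list was −0.013 for set A and −0.089 for set B. In set B 4 genes passed (3 lower and 1 higher) with no filter on low counts, and as many without replicate 3 of set B. Socs3, an inhibitor of JAK and STAT signalling, rose from 1.27 ± 0.683 CPM to 13.5 ± 5.89 in set A (log2 fold change 3.39, SE 0.57, adjusted p = 3.65e-04) and 9.28 ± 5.34 in set B (2.86, SE 0.57, adjusted p = 0.00150). Bcl6, a repressor that competes with STAT5 at its sites, fell from 136 ± 57.1 CPM to 57.0 ± 12.5 in set A and 54.5 ± 14.4 in set B (adjusted p = 0.00233 and 0.00153). Jak2 was at 9.20 CPM in the controls and at 11.2 and 8.64 in sets A and B (adjusted p = 0.768 and 0.935). Stat5b was at 80.8, 69.5 and 50.4 CPM (adjusted p = 0.669 and 0.0640), and passed in set B in 5 of 15 other settings (lowest adjusted p = 0.0214).

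Of 10 proteases of the binding proteins and their inhibitors, 7 were tested, and 2 were higher in each set while 0 were lower in edgeR. The called genes were 28.6% of those tested, against 22.3% and 22.8% of all genes (10.5% and 10.9% higher), and the median log2 fold change was 0.075 for set A and 0.50 for set B. At an unadjusted p under 0.05, 0 were lower for set A and 1 for set B, against 16.1% and 16.7% of all genes, and DESeq2 called as many. Pappa encodes PAPP-A, which cuts IGFBP4, and went from 44.0 ± 7.67 CPM in the controls to 203 ± 86.9 in set A and 242 ± 163 in set B. Its log2 fold change was 2.20 (SE 0.34, adjusted p = 9.33e-05) and 2.46 (SE 0.34, adjusted p = 3.06e-05), with no overlap with the controls in either set. Igfbp4 and Pappa thus changed in opposite directions. Adamts1, a secreted matrix protease, went from 18.1 ± 5.11 CPM to 80.6 ± 12.8 and 103 ± 29.5, log2 fold changes of 2.15 and 2.51. Stc1, an inhibitor of PAPP-A, was at 7.10 CPM in the controls and at 7.46 and 10.03 in sets A and B (adjusted p = 0.964 and 0.652).

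For signalling below IGF1R, 25 listed genes were tested. In set A 4 were lower and 4 higher, and in set B 5 were lower and 2 higher, so 32% and 28% of them were called, against 22.3% and 22.8% of all genes. The genes called in both sets were Mtor, Pik3ca, Sos1 and Foxo3, which were lower, and Akt1 and Shc1, which were higher. The call of Foxo3 was lost on leaving out any of 5 kidneys in set A against control (adjusted p = 0.0503 to 0.149) and any of 4 in set B against control (0.0517 to 0.119), while those of the other 5 genes were kept in every setting tried. Mtor, the kinase at the end of the chain, went from 1405 ± 274 CPM in the controls to 545 ± 81.8 in set A and 566 ± 105 in set B, log2 fold changes of −1.37 (SE 0.16, adjusted p = 2.18e-06) and −1.31 (SE 0.16, adjusted p = 3.67e-06). Pik3ca, a catalytic subunit of PI3K, went from 163 ± 12.7 CPM to 85.2 ± 6.83 and 92.0 ± 4.96. Akt1, the kinase between them, moved the other way, from 353 ± 47.1 CPM to 716 ± 103 in set A and 647 ± 50.2 in set B, log2 fold changes of 1.02 and 0.87 (SE 0.13 each). The median log2 fold change of the 25 genes was −0.21 for set A and −0.0017 for set B, beside −0.02 for all genes.

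**Figure D5:**
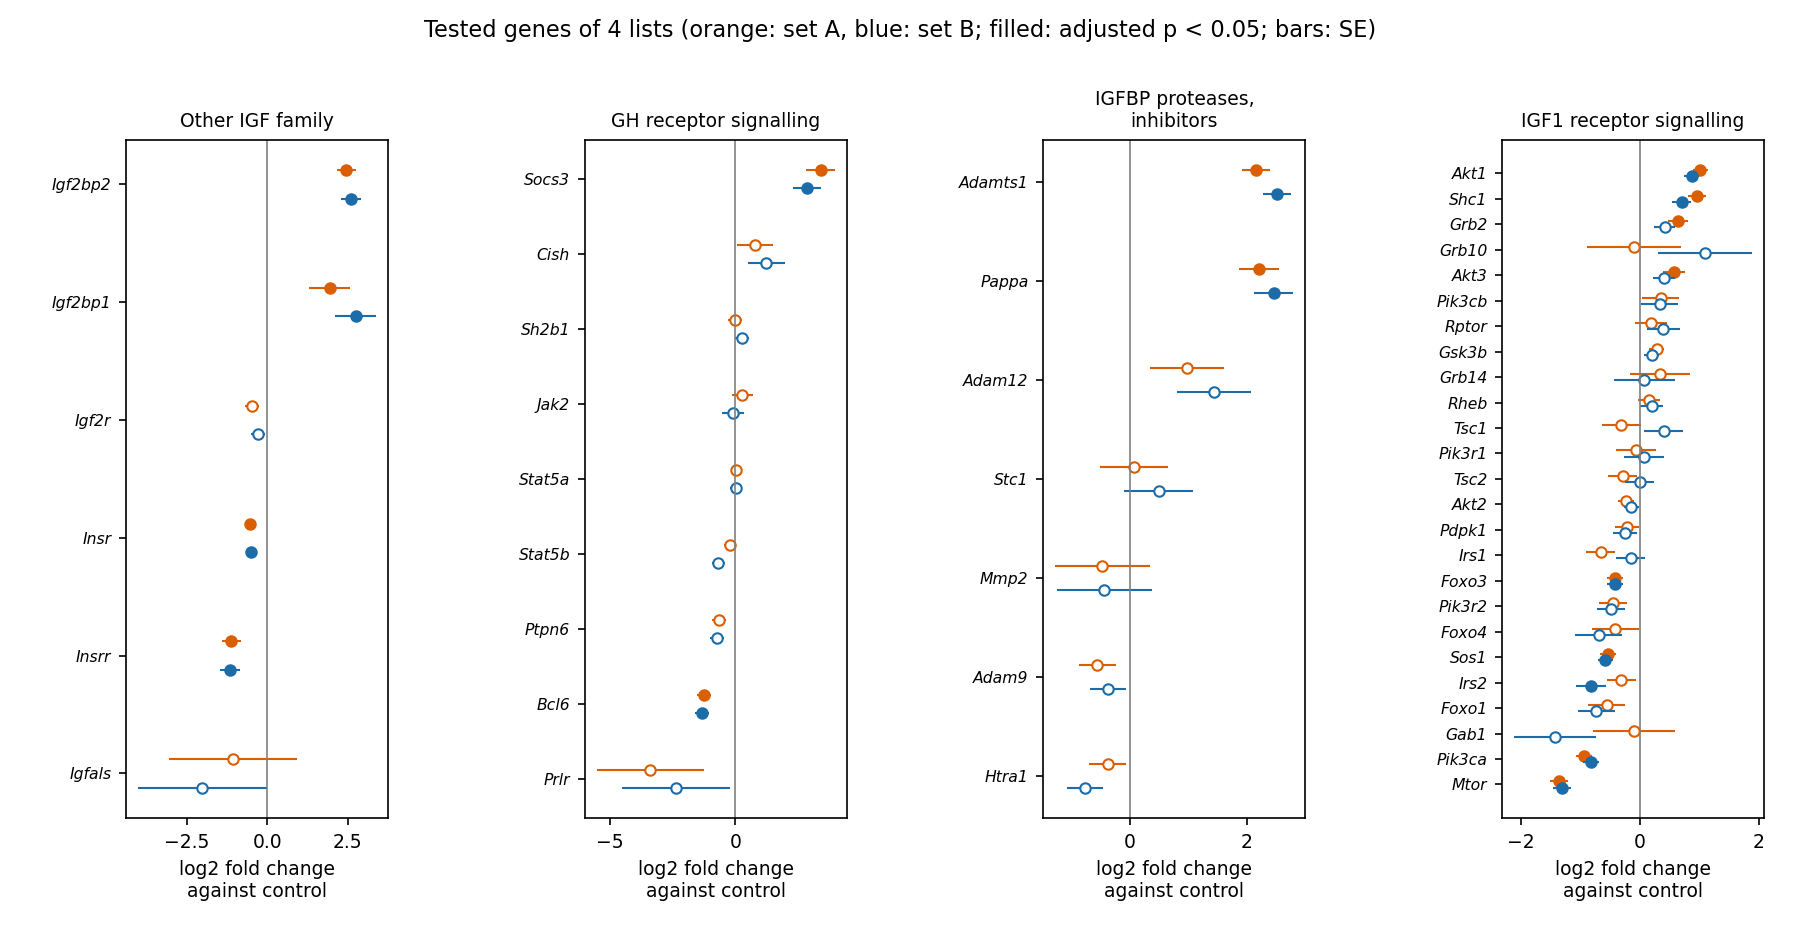
log2 fold change against the controls (horizontal axes, which differ between panels) of every tested gene of the 4 lists, set A in orange and set B in blue, with bars of 1 SE and filled points where the adjusted p was below 0.05. Socs3, Igf2bp2, Igf2bp1, Adamts1 and Pappa lie to the right of 0 in both sets, and of the filled points in the panel of IGF1R signalling those of Mtor lie furthest to the left.

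For each of the 6 called genes, the genes with the most similar pattern were sought among 8507 expressed genes, by the mean absolute difference of centred log2 CPM over the 12 kidneys. Igf1r had the closest neighbours, Rdx at 0.07 and Rnf130 at 0.08 log2 units. Ghr was nearest to Ahcy (0.14) and Hrsp12 (0.18). Igfbp7 was nearest to Zadh2 (0.15) and Cited2 (0.17), and Igfbp5 to Cebpa (0.20) and Cited2 (0.22), so Cited2 was named for both. Igfbp4 was nearest to Gpx1 (0.32) and Slc22a5 (0.33). Igfbp3 had the most distant neighbours, H2-Aa (0.55) and Scd1 (0.56). Between the 6 genes themselves the closest pair was Igfbp5 and Igfbp7, at 0.31. These distances rest on 12 kidneys in 3 groups and are a description.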

How the data were processed

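The authors extracted RNA with TRIzol from frozen pieces of kidney, prepared TruSeq stranded mRNA libraries, sequenced them on an Illumina HiSeq, checked the reads with FastQC, mapped them to mm10 (STAR) and assigned them to genes (HTSeq). The deposited values are raw counts of 23420 genes, with no normalization. Software versions, the annotation release and the strand setting are not given in the sources used here. Each of the 12 columns was matched to a kidney by its label, and 0 columns were left unused.

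The counts were analysed in edgeR 4.0.16 (R 4.3.3), as in the study's methods. Genes had to pass filterByExpr by group (count minimum 10, total minimum 15), libraries were scaled by TMM, and all 12 kidneys entered one quasi-likelihood fit by group. Two-sided tests were adjusted by Benjamini and Hochberg over 11664 genes, with a threshold of 0.05. SE is that of the fitted log2 fold change. Single genes were compared by exact two-sided permutation of CPM, 4 kidneys against 4. CPM per kb used the union of exons in GENCODE M21. A count of 3 was taken as the floor, and floors cover counting error only, since reads carry no molecular identifiers. The procedure was also run on simulated counts that did not model the many values of 0 in this table, and no result above rests on that run. Alternatives were relative log expression (RLE) size factors, library totals, DESeq2 1.42.0, no filter, a fit of only the 2 groups, a replicate block, leaving out each kidney, and, chosen after seeing the data, leaving out both ischemic kidneys numbered 4.

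The labels do not say which mice shared a cage, day or batch, so p-values measure the spread between these kidneys. No batch was given, and none could be examined. The genes, pathway lists, marker lists and motifs were chosen with earlier results of these data known. All 10 genes of the axis are named. From each pathway list, up to 3 genes past the threshold in both sets with the largest mean change were named, and for each called gene of the axis its 2 nearest genes whose mean log2 CPM reached 1. Insr, Igf2r, Jak2, Stat5b, Stc1, Sos1, Foxo3, Shc1, Polr2b and the marker genes named were added after their values were seen. From the list for IGF1 receptor signalling, 1 gene is not reported here and was left out of the counts of that list, though not of the fit. Measurements by PCR, plasma chemistry and histology were not analysed here.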

Additional observations from a re-analysis of the deposited data

Results flagged for a closer look

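Within each group of 4 kidneys, a value was marked when its gap to the nearest other value exceeded Dixon's critical share of the group's range at the 95% level. Of 25 groups of values examined, 5 were marked. Chance marks about 1 in 20 groups, but in 3 of these groups 3 of the 4 kidneys were at 0, which marks the fourth by construction, so that rate does not apply to them (Igf1 and Igfbp2 in set B, and Igfbp1 in the controls). Igf1 in set B was marked for replicate 1, at 1.35 CPM beside 3 kidneys at 0. Igfbp1 in the controls was marked for replicate 4, at 0.444 CPM beside 3 kidneys at 0. Igfbp2 was marked for replicate 4 of set A, at 2.59 CPM, and for replicate 4 of set B, at 2.41 CPM. Igfbp7 in set B was marked for replicate 3, at 251 CPM, where the other 3 kidneys of the set lay between 146 and 162 CPM. Without this kidney Igfbp7 was still called lower in set B.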

How the results depend on the processing

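The 6 genes lower in each set, 12 results in all, kept their direction and stayed past the threshold in each of the 15 settings. The highest adjusted p on leaving out a kidney was 0.0491, for Igfbp7 in set A. Igfbp3 ranged from −2.04 to −1.60 in set A and from −4.01 to −3.12 in set B. Same-numbered kidneys showed little common deviation (correlations of −0.06 to 0.05, none over 0.1). The nearest set A kidney to replicate 4 of set B was replicate 4, at 0.045. Deviations from a mean of 4 kidneys are noisy, so these values cannot exclude a pairing by number. With the replicate block 6 genes of the axis were called in set A and 7 in set B, Igf1 being the addition, and 0 between the sets. Growth hormone receptor signalling in set B had 2 called genes, 4 with no filter on low counts, and from 2 to 4 on leaving out a kidney, with 4 without replicate 3 of set B; the cause was not tested. Differences that changed sign on leaving out a kidney were all below the threshold: Ghr between the sets (−0.45 to 0.062), Igf1r between the sets (−0.0011 to 0.26), Igfbp2 in set A (−3.51 to 0.024) and Igfbp2 between the sets (−7.38 to 2.12). Jak2 in set B (−0.28 to 0.071; 0.014 without both ischemic kidneys numbered 4) and Stc1 in set A (−0.35 to 0.43; −0.011 with the replicate block) did so too. Igfbp1, Igfbp2 and Igfbp6 had 0 counts in most kidneys, and Igf1 in 4 of 12.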
